A study of Homo sapiens with 6 samples.

Results

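The genes described here are 42 genes of mitosis, the spindle and the kinetochore, measured in COV434 cells with and without the chromatin remodeler BRG1. They were taken as a named list, and each was found by its symbol among the 19899 genes of the deposited table. COV434, an established line of ovarian origin, is treated by the study as a model of SCCOHT, a small cell ovarian cancer with hypercalcemia whose cells lack BRG1. SMARCA4 encodes BRG1, which with SMARCA2 (BRM) is 1 of the 2 alternative motor subunits of SWI/SNF complexes. Control samples received the empty plasmid pCDNA3-neo and BRG1 samples the plasmid PBJ5-BRG1, both with a puromycin resistance plasmid (pBABE-puro) at a ratio of 10 to 6.25:1. Puromycin at 2 to 3 µg/ml was added 24 hours after transfection and kept for 3 days, so both groups were transfected, selected pools of cells and not clones. Each group had 3 samples, numbered 1 to 3, which the series' design text calls biological replicates.

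During mitosis the kinases CDK1, PLK1, AURKA and AURKB drive the cell into division, the spindle is built from microtubules and motor proteins, and kinetochores on the centromeres attach each chromosome to it. The spindle assembly checkpoint holds the cell until every kinetochore is attached, after which the anaphase-promoting complex destroys securin and the cyclins, the chromatids part and the cell divides. Most of these genes are transcribed late in the cell cycle and are low in cells that are not dividing, and many carry CCAAT boxes, bound by NF-Y, and a cell cycle genes homology region (CHR), bound by complexes with LIN9, MYBL2 and FOXM1, close to the transcription start. In bulk RNA, fewer cells in mitosis and less RNA per mitotic cell cannot be told apart.

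The promoters of the members show these elements, and they were read for 36 of the 42 members from RefSeq windows of GRCh38.p14. BUB3, UBE2C, AURKA, BIRC5, TTK and TPX2 had none. In the 250 bases upstream of the start, on either strand, TTTGAA (the common CHR form) stood in 20 of 36 members and in 53.7% of their 41 windows, beside 13.3% of all 35116 windows and 9.30% of the windows of genes tested below. For 17 of the 20 members it stood within 80 bases of the start. CCAAT stood in 27 members and in 73.2% of their windows, beside 32.0% of all windows, and at least 2 matches stood in 41.5% of their windows beside 9.53%. Another CHR form, TTCGAA, was in none of the member windows and in 1.19% of all windows. The E2F forms TTTCCCGC and TTTGGCGC were in 1 and 0 members, beside 1.39% and 0.550% of all windows. A match is only a run of letters, and windows without a match may hold other forms. Further forms were not searched, so a gene without TTTGAA may still carry a CHR.

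The first 5 of the following sequences belong to genes that were called lower with BRG1 once the replicate number was taken into account. The last 2 belong to genes whose difference was close to 0. They are examples and not all genes of either kind. Each is the 120 bases upstream of a RefSeq start, 5′ to 3′ on the gene's strand, with CCAAT and TTTGAA, or their reverse complements ATTGG and TTCAAA, in capitals.
CCNA2: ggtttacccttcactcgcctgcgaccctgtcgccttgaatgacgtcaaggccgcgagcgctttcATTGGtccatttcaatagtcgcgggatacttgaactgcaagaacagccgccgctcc
CCNB2: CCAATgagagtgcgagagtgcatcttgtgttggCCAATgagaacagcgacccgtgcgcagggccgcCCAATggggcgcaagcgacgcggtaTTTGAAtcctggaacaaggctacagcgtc
CENPK: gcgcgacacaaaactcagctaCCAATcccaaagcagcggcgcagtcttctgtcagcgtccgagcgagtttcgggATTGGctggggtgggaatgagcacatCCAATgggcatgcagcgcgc
PTTG1: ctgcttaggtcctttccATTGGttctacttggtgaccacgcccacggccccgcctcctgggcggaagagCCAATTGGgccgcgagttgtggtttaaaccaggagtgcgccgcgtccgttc
KIF20A: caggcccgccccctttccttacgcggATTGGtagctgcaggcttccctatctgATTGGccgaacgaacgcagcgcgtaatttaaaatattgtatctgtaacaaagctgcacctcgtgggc
ESPL1: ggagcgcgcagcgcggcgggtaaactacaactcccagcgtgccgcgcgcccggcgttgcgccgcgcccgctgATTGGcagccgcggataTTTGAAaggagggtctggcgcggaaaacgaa
KIF18A: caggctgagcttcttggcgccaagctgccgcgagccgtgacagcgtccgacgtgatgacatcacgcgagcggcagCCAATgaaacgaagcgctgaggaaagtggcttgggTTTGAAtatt
They lie at these places of GRCh38: CCNA2 at chr4:121823884-121824003 on the minus strand, CCNB2 at chr15:59105026-59105145 on the plus strand, CENPK at chr5:65563169-65563288 on the minus strand, PTTG1 at chr5:160421735-160421854 on the plus strand, KIF20A at chr5:138178992-138179111 on the plus strand, ESPL1 at chr12:53268179-53268298 on the plus strand and KIF18A at chr11:28108157-28108276 on the minus strand. Of the CCNB2 stretch, 20 bases lie in an annotated exon of CCNB2, and the other stretches lie outside the annotated exons of their own genes. Exons of other genes were not checked, and the KIF20A stretch lies inside the annotated span of KIF20A. CCNB2 carried 3 CCAAT matches and 1 TTTGAA match in the bases shown, the latter starting 29 bases before the start. CENPK, KIF20A, PTTG1 and CCNA2 carried CCAAT matches and no TTTGAA, and in PTTG1 the run CCAATTGG is a match on both strands at once. ESPL1 and KIF18A, 2 of the genes near 0, carried both, with TTTGAA 31 and 10 bases before the start. ANLN and SMC4, whose fold changes without the block were nearer 0 than these, had TTTGAA and no CCAAT match. PRC1, called lower but not shown, had both. Among the 7 genes called lower, 2 of the 6 with a window held TTTGAA and 6 held CCAAT, and among the other members 18 and 21 of 30 did. These shares were not compared by a test.

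**Figure D1:**
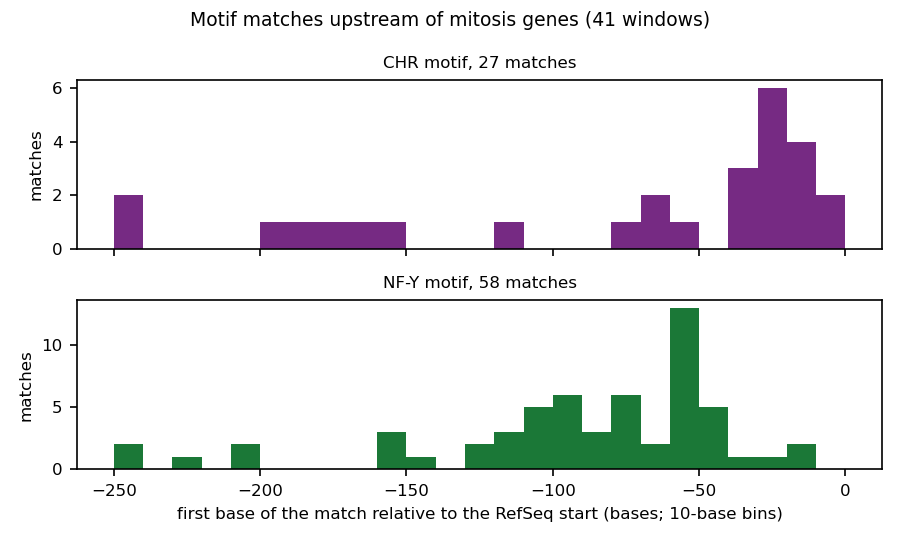
Matches of the CHR form TTTGAA (upper panel, 27 matches) and of the NF-Y element CCAAT (lower panel, 58 matches) in the 250 bases upstream of the 41 member windows, by distance from the RefSeq start in bins of 10 bases. CCAAT sites of AURKB and PTTG1 that lie in overlapping windows are counted once for each window. The CHR matches gather close to the start and the NF-Y matches lie further upstream.

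The samples held 29699741 to 63613710 estimated counts in all, and SMARCA4 behaved as the labels say. Its level, in counts relative to the TMM-scaled library size (CPM), was 31.6, 36.7 and 33.3 in Control 1 to 3 and 2319, 1716 and 1729 in BRG1 1 to 3, a log2 fold change of 5.83 ± 0.17 (SE; edgeR adjusted p = 6.04e-06). Part of this RNA comes from the plasmid. SMARCA2, the other ATPase, was at 0.775 CPM or less in every sample. FOXL2, a defining gene of granulosa cells, was at 0.027 CPM or less in every sample and at 0 in all BRG1 samples. Mitochondrial transcripts made up 5.18% to 6.00% of the counts in Control and 4.13% to 4.61% in BRG1 samples. Summed granulosa markers ranged from 6.45 to 10.3 CPM in Control and 14.0 to 19.8 CPM in BRG1 samples (3 of 7 tested, CYP19A1 called higher), fibroblast markers from 116 to 190 and 96.7 to 208 CPM (7 of 8 tested, PDGFRA and PDGFRB called higher), leukocyte markers from 7.60 to 14.7 and 8.14 to 16.7 CPM (2 of 6 tested, LYZ called higher, CD3E at 0 in Control), and endothelial markers from 38.0 to 57.8 and 137 to 150 CPM (5 of 5 tested, VWF, CDH5 and TEK called higher). Of the markers tested, 1 of 3 granulosa, 3 of 7 fibroblast, 0 of 2 leukocyte and 0 of 5 endothelial genes had a fitted level below Control. None was called lower, and 1 fibroblast marker was lower at an unadjusted p under 0.05 (edgeR). By the same edgeR test, 1313 of all 14225 genes tested were called higher and 140 lower. Whether any of these marker or mitochondrial differences has a part in the values of the mitosis genes was not tested.

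All 42 genes passed the filter on low counts (10 or more in 3 or more samples), with 178 counts (SPC25) to 11516 counts (TOP2A) in a sample. With BRG1, 40 of the 42 had a lower fitted level, against 55.6% of the 14225 genes tested, and the median log2 fold change was -0.35, against -0.04 for all genes tested. None of the 42 was called at an adjusted p under 0.05 by the edgeR quasi-likelihood test without a block, none had an unadjusted p under 0.05, and DESeq2 and limma-voom also called 0 (DESeq2 had 1 with an unadjusted p under 0.05). The share of all genes called lower by this test was 0.984%. The groups overlapped for all but 1 of the 42 (2.38%), CENPI, while 11.0% of all genes tested were lower in every BRG1 sample than in every Control sample.

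The 3 samples of a group differed widely for these genes. The highest Control sample exceeded the lowest by a median of 1.61 times (1.07 to 2.09 times over the 42 genes), against 1.26 times for genes tested with a Control mean of at least 5 CPM. Control 1 was the lowest Control sample for 37 of the 42 genes (88.1%, against 31.3% of all genes tested), and BRG1 1 was the lowest BRG1 sample for 39 (92.9%, against 34.0%). The summed level of the 42 genes was 1495, 2151 and 2104 CPM in Control 1 to 3 and 1071, 1648 and 2004 CPM in BRG1 1 to 3. Replicate number 1 was thus low in both groups, and BRG1 samples were lower than the Control sample of the same number in each of the 3 numbers.

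Samples of the same number deviated together across genes. The labels do not state a pairing, so the numbers were taken as pairs from these same data. A fit with the number as a block was set beside the first. There 41 of 42 genes had a lower fitted level, with a median log2 fold change of -0.41. At an adjusted p under 0.05, 7 of 42 (16.7%) were called lower, against 5.50% of all genes tested: CCNA2, CCNB2, BIRC5, PTTG1, CENPK, PRC1 and KIF20A. None was called higher. An unadjusted p under 0.05 and a lower level were found for 29 genes (69.0%, against 15.3%), but 22 of these did not pass the adjustment over all genes. DESeq2 with the block called 14 of 42 lower (33.3%, against 6.39%), namely those 7 with AURKB, CDCA8, CDK1, KIF4A, MAD2L1, PLK1 and UBE2C, and limma-voom with the block called those 7 with PLK1.

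Within a number, the log2 ratio of BRG1 to Control (CPM with a prior of 0.5 count) had a median over the 42 genes of -0.64 in number 1, -0.42 in number 2 and -0.07 in number 3, which are changes of -35.7%, -25.0% and -4.82%. The medians over all genes tested were -0.07, -0.02 and 0.00. The ratio was below 0 for 41, 40 and 31 of the 42 genes in the 3 numbers, and below 0 in every number for 30 (71.4%, against 30.0% of all genes tested). Number 1 held the largest drop for 28 genes (66.7%, against 39.4%), and number 3 held the highest ratio for 34 (81.0%, against 39.7%). The difference was thus largest in number 1 and smallest in number 3 for most members. SMARCA4 was 73.3, 46.8 and 51.9 times its Control level in numbers 1, 2 and 3, and the BRG1 library of number 3 was the shallowest of the 6. Whether either has a part in the spread of the ratios was not tested.

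**Figure D2:**
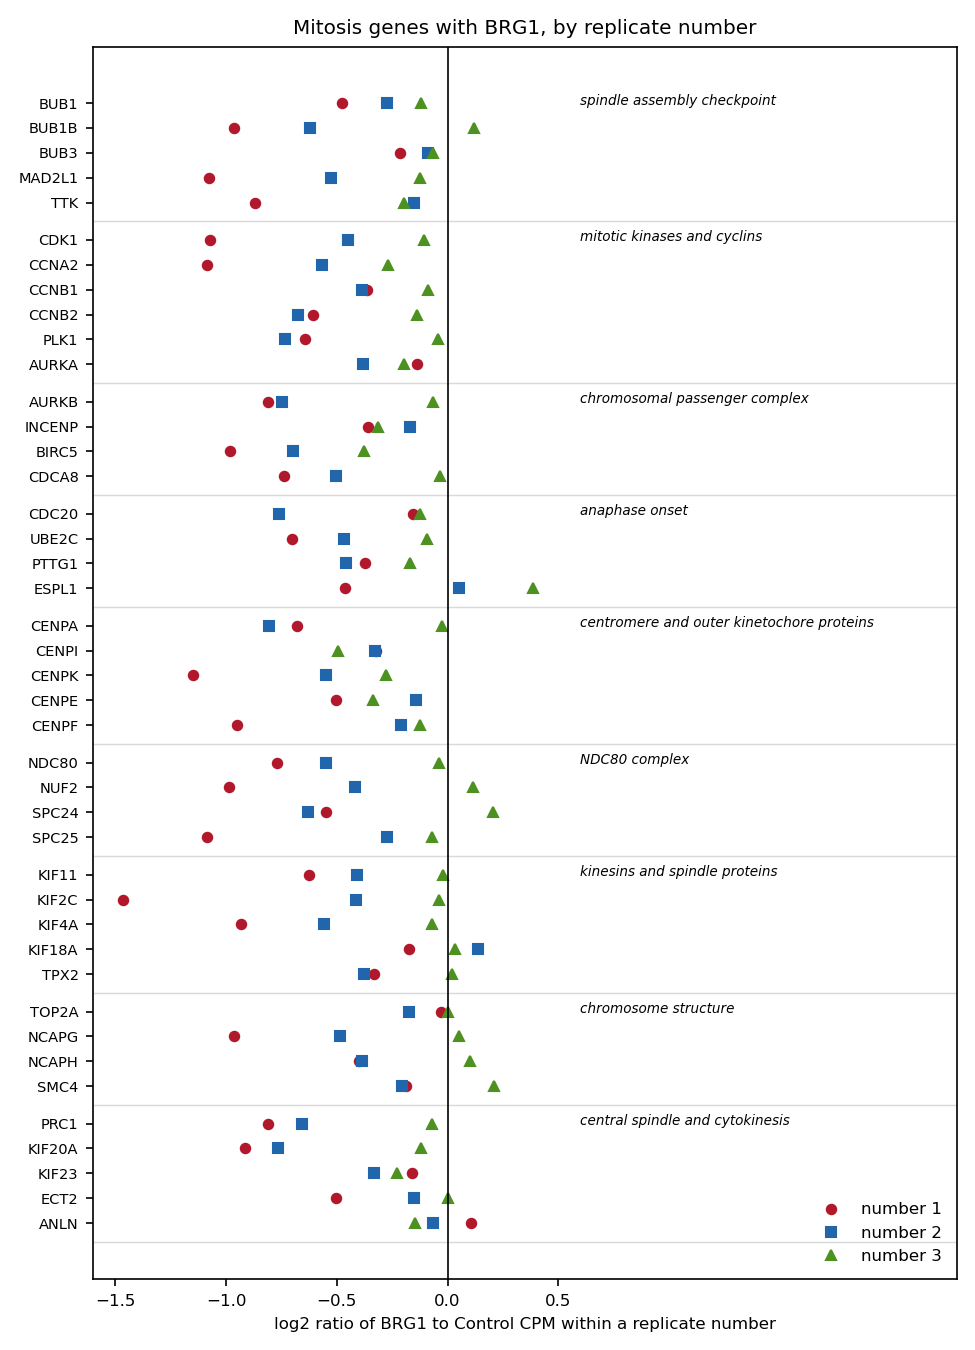
Log2 ratio of BRG1 to Control CPM within each replicate number (symbols) for each of the 42 genes, ordered by role, with a line at 0. Most circles and squares (numbers 1 and 2) lie left of 0, while the triangles (number 3) all lie between -0.49 and 0.39.

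**Figure D3:**
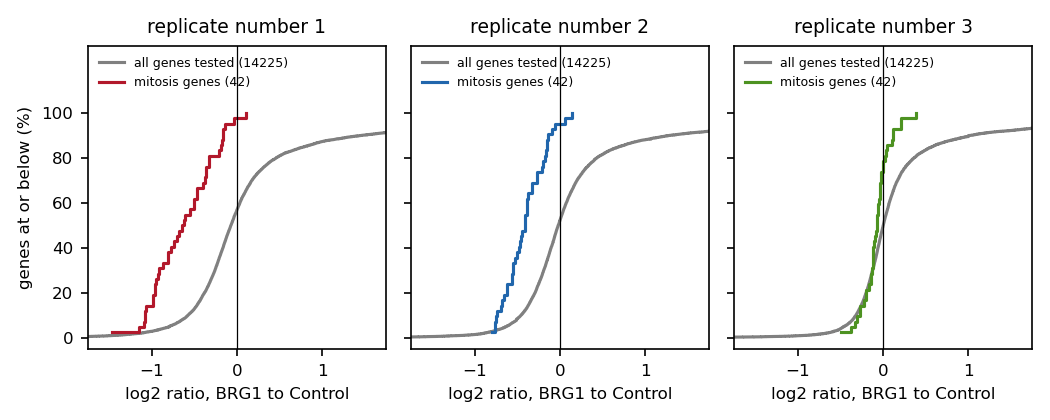
Cumulative distribution of the within-number log2 ratio for the 42 genes (colored steps) and all 14225 genes tested (gray), one panel a number; the vertical line marks 0. The colored steps lie left of the gray curve in numbers 1 and 2, and the curves lie close together in number 3, where the medians are -0.07 and 0.00.

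The cyclins and kinases that start mitosis were lower with BRG1 in every number, for all 6 of CDK1, CCNA2, CCNB1, CCNB2, PLK1 and AURKA, with a median log2 fold change of -0.43. CCNA2, the cyclin of S phase and mitotic entry, was at 21.5, 31.1 and 38.3 CPM in Control 1 to 3 and 10.2, 21.0 and 31.8 CPM in BRG1 1 to 3. Each BRG1 sample lay below its own Control, but BRG1 3 lay above Control 1 and 2. The log2 fold change was -0.54 ± 0.39 without the block (edgeR adjusted p = 0.539) and -0.63 ± 0.16 with it (adjusted p = 0.0319), so it was called only in the paired fit. CCNB2, a B-type cyclin that activates CDK1, was at 26.4, 39.5 and 31.2 CPM in Control and 17.3, 24.7 and 28.3 CPM in BRG1 samples, where only BRG1 3 reached into the Control range. Its log2 fold change was -0.47 ± 0.23 (edgeR adjusted p = 0.314), and -0.48 ± 0.13 with the block (adjusted p = 0.0416).

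CDK1, the kinase itself, had within-number log2 ratios of -1.07, -0.45 and -0.11, and PLK1, which acts at centrosomes and kinetochores, of -0.65, -0.74 and -0.04. Neither was called by edgeR with the block (adjusted p = 0.0741 and 0.0584). CCNB1, the other B-type cyclin, had smaller ratios of -0.36, -0.38 and -0.09. AURKA, the centrosomal Aurora kinase, had the fold change nearest 0 of this group, with 24.1, 30.2 and 40.3 CPM in Control and 21.9, 23.1 and 35.1 CPM in BRG1 samples. That is a log2 fold change of -0.24 ± 0.25 (edgeR adjusted p = 0.677), or -0.24 ± 0.10 with the block (adjusted p = 0.135), and the groups overlapped. For AURKA, 16.2% of the transcript's runs of 31 bases also occur in transcripts of other genes, so its estimated counts may be less certain.

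The 4 members of the chromosomal passenger complex, which corrects faulty attachments and directs cytokinesis, were lower in every number, with a median log2 fold change of -0.42. BIRC5 (survivin), the subunit that brings the complex to the centromere, was at 53.5, 87.2 and 86.7 CPM in Control and 27.1, 53.7 and 66.8 CPM in BRG1 samples. Its ratios of -0.98, -0.70 and -0.38 on the log2 scale showed a drop also in number 3. The log2 fold change was -0.63 ± 0.33 without the block (edgeR adjusted p = 0.359) and -0.68 ± 0.12 with it (adjusted p = 0.00783), the smallest p among the 42 genes. BIRC5 was also the 1 gene still called with the block when number 1 was left out.

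AURKB, the kinase of the complex, and CDCA8 (borealin) had ratios of -0.81, -0.75 and -0.07 and of -0.74, -0.51 and -0.03. INCENP, the scaffold that activates AURKB, was at 28.2, 26.3 and 42.7 CPM in Control and 22.0, 23.4 and 34.4 CPM in BRG1 samples. For INCENP the largest single value was Control 3, and BRG1 3 lay above Control 1 and 2. The log2 fold change was -0.29 ± 0.25 (edgeR adjusted p = 0.605), or -0.28 ± 0.09 with the block (adjusted p = 0.0812).

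Among the genes of anaphase onset, CDC20, UBE2C and PTTG1 were lower in every number and ESPL1 was not, with a median log2 fold change of -0.34 over the 4. PTTG1 encodes securin, which holds separase inactive until anaphase, and was at 50.5, 66.3 and 69.0 CPM in Control and 39.0, 48.3 and 61.3 CPM in BRG1 samples. BRG1 1 and 2 lay below all Control samples. Its log2 fold change was -0.32 ± 0.19 (edgeR adjusted p = 0.428), and -0.33 ± 0.09 with the block (adjusted p = 0.0411). PTTG1 shares 5.66% of its runs of 31 bases with its copy PTTG3P.

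ESPL1 encodes separase, the protease that cuts cohesin, and was at 15.4, 25.8 and 23.4 CPM in Control and 11.2, 26.7 and 30.5 CPM in BRG1 samples. Like PTTG1 it was lower in number 1, but it was higher in numbers 2 and 3, with a log2 fold change of 0.08 ± 0.37 (edgeR adjusted p = 0.937). CDC20, the activator of the anaphase-promoting complex, had ratios of -0.16, -0.76 and -0.12, and shares 20.6% of its runs of 31 bases with CDC20P1. UBE2C, the complex's ubiquitin-conjugating enzyme, had ratios of -0.70, -0.47 and -0.09.

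The spindle assembly checkpoint genes had a median log2 fold change of -0.35 and none was called in either edgeR fit, while 3 of 5 had an unadjusted p under 0.05 with the block. BUB1B (BUBR1), part of the complex that inhibits CDC20, was at 42.5, 58.1 and 47.6 CPM in Control and 21.8, 37.7 and 51.8 CPM in BRG1 samples. It was lower in numbers 1 and 2 and higher in number 3, with a log2 fold change of -0.42 ± 0.29 (edgeR adjusted p = 0.516). BUB3, its partner, which is used throughout the cell cycle, was at 110, 105 and 112 CPM in Control and 94.8, 98.6 and 108 CPM in BRG1 samples.

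BUB3 had the smallest spread of the group, and its log2 fold change was -0.12 ± 0.10 (edgeR adjusted p = 0.592). MAD2L1 (MAD2), the checkpoint's inhibitor of CDC20, had within-number log2 ratios of -1.08, -0.53 and -0.13, and TTK (MPS1), the kinase that starts the signal, of -0.87, -0.15 and -0.20. The kinase BUB1 had ratios of -0.47, -0.28 and -0.12. All 5 genes had their largest drop in number 1.

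At the centromere and outer kinetochore all 5 genes were lower in every number, with a median log2 fold change of -0.38, and each had an unadjusted p under 0.05 with the block. CENPK, a subunit of the inner kinetochore network, was at 24.3, 40.7 and 27.4 CPM in Control and 10.9, 27.8 and 22.6 CPM in BRG1 samples. BRG1 2 lay above Control 1 and 3, since number 2 was high in both groups. The log2 fold change was -0.59 ± 0.35 (edgeR adjusted p = 0.419), and -0.65 ± 0.17 with the block (adjusted p = 0.0341). CENPI, another subunit of that network, was at 9.63, 10.4 and 10.3 CPM in Control and 7.69, 8.31 and 7.29 CPM in BRG1 samples, the only member whose groups were apart.

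CENPI had a log2 fold change of -0.38 ± 0.17 (edgeR adjusted p = 0.266), the smallest p of the 42 in the fit without the block, and the block did not bring it to a call (adjusted p = 0.105). It was also the gene with the lowest ratio in number 3, at -0.49. CENPF, a large outer kinetochore protein of G2 and mitosis, was at 59.8, 91.2 and 125 CPM in Control and 31.0, 78.8 and 115 CPM in BRG1 samples. Its ratios in numbers 2 and 3 were small, and its log2 fold change was -0.30 ± 0.45 (edgeR adjusted p = 0.789). CENPA, the histone variant that marks the centromere, had ratios of -0.68, -0.80 and -0.03, and CENPE, a kinetochore motor, of -0.51, -0.14 and -0.34.

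The NDC80 complex, which binds microtubules, had a median log2 fold change of -0.34, and 2 of its 4 genes were lower in every number. NDC80 was at 18.2, 33.8 and 26.8 CPM in Control and 10.7, 23.1 and 26.0 CPM in BRG1 samples, with a log2 fold change of -0.40 ± 0.35 (edgeR adjusted p = 0.617). SPC24 was at 14.0, 24.6 and 20.8 CPM in Control and 9.57, 15.9 and 24.03 CPM in BRG1 samples, with -0.27 ± 0.35 (edgeR adjusted p = 0.749). For SPC24 number 3 went the other way, and NUF2 did likewise, with ratios of -0.99, -0.42 and 0.12. SPC25 had ratios of -1.09, -0.28 and -0.07. The 4 subunits work as 1 unit, and none was called in the edgeR or DESeq2 fits over all 6 samples.

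Of the kinesins and spindle proteins, 4 of 5 had a fitted level below that in Control (median log2 fold change -0.32). None was called in either edgeR fit, and DESeq2 with the block called KIF4A lower. KIF11 (Eg5), the motor that pushes the spindle poles apart, was at 35.9, 50.2 and 45.8 CPM in Control and 23.2, 37.8 and 45.2 CPM in BRG1 samples, with a log2 fold change of -0.32 ± 0.25 (edgeR adjusted p = 0.569). The Control and BRG1 samples of number 3 were almost level. KIF2C (MCAK), which takes microtubules apart, had the largest single drop of all 42 genes, a log2 ratio of -1.46 in number 1, but -0.41 and -0.04 in numbers 2 and 3. KIF4A, a chromosome motor that shares 26.4% of its runs of 31 bases with KIF4B, had ratios of -0.93, -0.56 and -0.07.

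KIF18A, which dampens chromosome movements at the metaphase plate, was at 10.0, 15.7 and 8.93 CPM in Control and 8.89, 17.2 and 9.13 CPM in BRG1 samples. Here the numbers differed more than the groups, and the log2 fold change was 0.03 ± 0.33 (edgeR adjusted p = 0.975). TPX2, the spindle factor that activates AURKA, had ratios of -0.33, -0.38 and 0.02.

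The chromosome structure genes had the smallest median of the 9 role groups, -0.13 on the log2 scale, and none of the 4 was lower in every number. NCAPG, a condensin subunit, was at 25.8, 47.5 and 33.2 CPM in Control and 13.2, 34.0 and 34.4 CPM in BRG1 samples, with a log2 fold change of -0.39 ± 0.38 (edgeR adjusted p = 0.659). SMC4, the ATPase of condensin, was at 53.0, 86.1 and 94.4 CPM in Control and 46.6, 74.7 and 109 CPM in BRG1 samples, with -0.02 ± 0.32 (edgeR adjusted p = 0.981). Number 3 was higher with BRG1 for both, and for NCAPH, another condensin subunit, with ratios of -0.40, -0.38 and 0.10.

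TOP2A, the topoisomerase that untangles chromatids, had ratios of -0.03, -0.17 and 0.00. For NCAPG 33.7% of the exonic bases, and for SMC4 22.0%, are also covered by other genes, and the libraries did not keep strand.

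In the central spindle and cytokinesis group the 5 genes split, with 2 called with the block and 1 near 0 (median log2 fold change -0.25). PRC1, which bundles the microtubules of the central spindle, was at 71.8, 102 and 85.0 CPM in Control and 40.9, 64.7 and 81.1 CPM in BRG1 samples, where BRG1 3 lay above Control 1. Its log2 fold change was -0.47 ± 0.25 (edgeR adjusted p = 0.355), and -0.51 ± 0.14 with the block (adjusted p = 0.0478). In the annotation used here for gene positions, other genes cover 61.9% of PRC1's exonic bases and 55.3% of its runs of 31 bases recur elsewhere. Most of these are shared with an unnamed gene (53.3% of PRC1's runs). That annotation is later than the one used for the counts, and whether the earlier one held this gene was not checked. The PRC1 value may therefore be less certain, but by how much is not known.

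KIF20A (MKLP2), the kinesin that carries the passenger complex to the central spindle, is described because it was called, after its values were seen. It was at 22.6, 31.2 and 43.1 CPM in Control and 12.0, 18.3 and 39.6 CPM in BRG1 samples, with a log2 fold change of -0.48 ± 0.43 (edgeR adjusted p = 0.630), and -0.60 ± 0.16 with the block (adjusted p = 0.0411). Each BRG1 sample lay below its own Control, and BRG1 3 lay above Control 1 and 2. ANLN (anillin), a scaffold of the contractile ring, was at 84.5, 90.5 and 57.4 CPM in Control and 91.1, 86.6 and 51.8 CPM in BRG1 samples.

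ANLN was the gene with the highest ratio in number 1, 0.11 on the log2 scale, and it was lowest in number 3 of both groups, unlike most members. Its log2 fold change was -0.02 ± 0.25 (edgeR adjusted p = 0.981). KIF23 (MKLP1), the central spindle kinesin, had ratios of -0.16, -0.33 and -0.23, and ECT2, which activates RhoA for furrowing, of -0.50, -0.15 and 0.00.

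**Figure D4:**
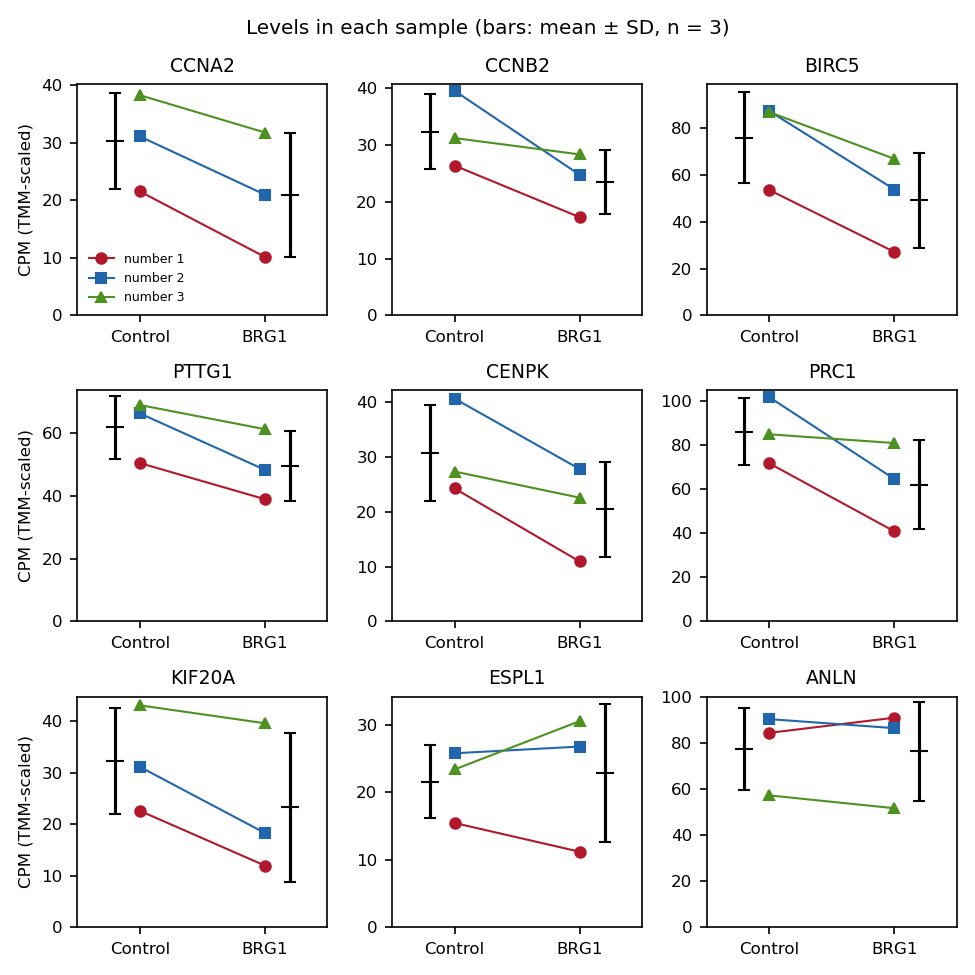
CPM in each sample for the 7 genes called lower with the replicate block and for ESPL1 and ANLN, which were not called; lines join the Control and BRG1 samples of a number, and black bars give the mean ± SD (n = 3). For the 7 called genes every line falls although the bars of the groups overlap, and for ESPL1 and ANLN the lines go both ways.

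The 7 called genes lie on chromosomes 4, 5, 15 and 17 of GRCh38. CCNA2 spans chr4:121816444-121823883, CCNB2 chr15:59105126-59125045, BIRC5 chr17:78214186-78225636, PTTG1 chr5:160421855-160428739, CENPK chr5:65517766-65563168, PRC1 chr15:90966040-90995629 and KIF20A chr5:138178719-138187723. CCNA2, CENPK and PRC1 are on the minus strand and the others on the plus strand.

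The number of calls with the block depended on which number was used. Without number 3, 23 of the 42 genes were called lower, all of the 7 among them, against 6.84% of all genes tested in that fit. Without number 1 the count was 1, BIRC5, against 1.99%, and without number 2 it was 0, against 0.155%, so the calls over all genes fell as well. In the fits without a block no single sample left out brought a member to a call, but the median log2 fold change ranged from -0.09 without BRG1 1 to -0.56 without BRG1 3, and without BRG1 1 the genes with a lower fitted level fell from 40 to 32.

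FOXM1, MYBL2 and LIN9, which act through the CHR element, and E2F1 had fitted levels below Control and were not called in either edgeR fit. FOXM1, the factor of G2 and M phase genes, had a log2 fold change of -0.20 ± 0.35 (edgeR adjusted p = 0.822, and 0.220 with the block). MYBL2 had -0.34 ± 0.35 (adjusted p = 0.678 and 0.147), LIN9 -0.44 ± 0.29 (0.479 and 0.136) and E2F1, the factor of S phase genes, -0.42 ± 0.37 (0.621 and 0.0752), all by edgeR. DESeq2 with the block called E2F1 (adjusted p = 0.0308) and MKI67 (adjusted p = 0.0229) lower. MKI67, the marker of cycling cells, had -0.40 ± 0.43 (edgeR adjusted p = 0.688, and 0.104 with the block), close to the median of the members. RB1, CDKN1A (p21) and CDKN1B (p27), which restrain the cycle, had log2 fold changes of 0.15, -0.01 and -0.19, and none was called in either edgeR fit.

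Among 26 transcriptional regulators of cell cycle genes, 22 were below 0. Without the block none was called by edgeR (1 lower and 1 higher at an unadjusted p under 0.05) or limma-voom, and DESeq2 called NFYB higher. With the edgeR block, 3 of 26 were called lower (TFDP2, RBL1 and LIN54), against 5.50% of all genes tested, and NFYB was called higher, against 13.3%. DESeq2 with the block called 4 lower and 1 higher, against 1022 lower (6.39%) and 2086 higher among all 15991 genes. NFYB encodes a subunit of the factor that binds CCAAT, and was at 22.3, 23.7 and 21.7 CPM in Control and 28.5, 34.6 and 27.8 CPM in BRG1 samples. The groups of NFYB did not overlap, and 15.6% of all genes tested were likewise higher in every BRG1 sample than in every Control sample. Its log2 fold change was 0.42 ± 0.10 with the block (edgeR adjusted p = 0.0252). TFDP2, the partner of E2F factors, had -0.36 ± 0.10 with the block (edgeR adjusted p = 0.0377).

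Other genes of the same processes were also mostly below 0, and their difference from the members was not tested. Of 100 further mitotic genes tested, 84 were below 0, with a median log2 fold change of -0.21 and within-number medians of -0.42, -0.23 and -0.04, and 48 were lower in every number. No gene of these lists was called by edgeR without the block (1 lower and 2 higher at an unadjusted p under 0.05; DESeq2 and limma-voom also called 0). With the block 7 were called lower, namely HMMR, TACC3, NUSAP1, ZWINT, CENPU, SGOL2 and CKS1B, close to the 5.50% of all genes tested, and WEE1 was called higher, against 13.3% of all genes tested. DESeq2 with the block called 15 lower and 1 higher, against 1022 lower (6.39%) and 2086 higher among all 15991 genes. HMMR, a spindle protein, had within-number log2 ratios of -1.63, -0.84 and -0.32 (edgeR with the block, -0.92 ± 0.22, adjusted p = 0.0289), and CKS1B, a CDK1 partner, of -1.38, -0.90 and -0.09 (-0.79 ± 0.22, adjusted p = 0.0449).

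WEE1, the kinase that inhibits CDK1, was at 20.7, 18.7 and 20.5 CPM in Control and 30.9, 25.1 and 23.8 CPM in BRG1 samples. All BRG1 samples lay above the Controls, as they did for 15.6% of all genes tested. Its log2 fold change was 0.41 ± 0.15 (edgeR adjusted p = 0.166), and 0.40 ± 0.11 with the block (adjusted p = 0.0450). TACC3, a spindle protein that acts with AURKA, had -0.42 ± 0.10 with the block (edgeR adjusted p = 0.0218), and the kinetochore genes ZWINT and CENPU had -0.48 ± 0.13 (adjusted p = 0.0450) and -0.61 ± 0.17 (adjusted p = 0.0480). SGOL2 (SGO2), a protector of centromeric cohesin, had -0.48 ± 0.13 (edgeR adjusted p = 0.0428 with the block). By list, the 16 other checkpoint and anaphase-promoting complex genes were nearest 0, with a median of -0.06, and the 23 other spindle, kinesin and cytokinesis genes were lowest, with -0.25, apart from the 13 mitotic entry and exit regulators at -0.28.

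The 33 DNA replication genes, which act in S phase, had nearly the same median as the members, -0.33, with 32 of 33 below 0 and within-number medians of -0.75, -0.34 and -0.01. Without the block edgeR and limma-voom called 0 (2 lower at an unadjusted p under 0.05 by edgeR) and DESeq2 called GINS4 lower. With the edgeR block, 4 of 33 were called lower (RRM1, GINS4, MCM5 and MCM6), against 5.50% of all genes tested, and DESeq2 with the block called 12 lower, against 6.39%. RRM1, the large subunit of ribonucleotide reductase, had -0.47 ± 0.10 (edgeR adjusted p = 0.0196 with the block), and GINS4, of the replicative helicase, -0.78 ± 0.20 (adjusted p = 0.0338). Genes of S phase and genes of mitosis thus had similar median fold changes. In every number 17 of the 33 replication genes (51.5%) were lower, against 30 of the 42 members (71.4%). The difference between the lists was not tested.

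**Figure D5:**
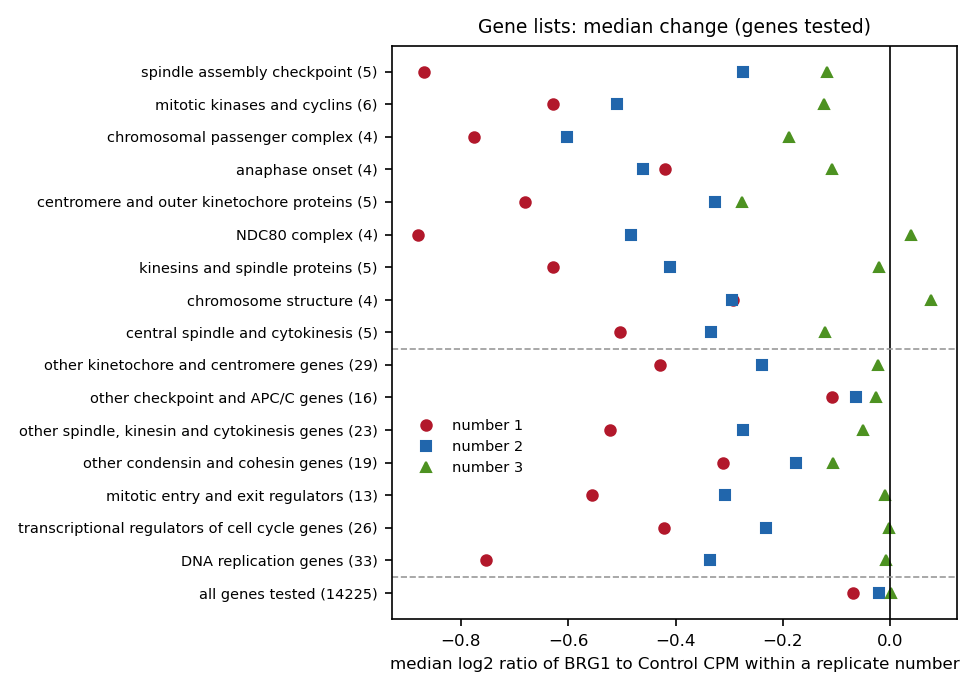
Median log2 ratio of BRG1 to Control CPM within each replicate number (symbols) for the 9 role groups of the 42 genes, for other gene lists and for all genes tested, with the number of genes tested in brackets. In number 1 the replication genes reach -0.75, like several role groups of the members, while in number 3 the role groups lie between -0.28 and 0.08 and all genes tested at 0.00.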

How the data were processed

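RNA-seq libraries (poly(A), no strand kept, 500 ng RNA, read pairs of 78 bp) of 3 Control and 3 BRG1 samples of COV434 were used, grouped by GEO's labels. The authors ran FastQC 0.11.5, aligned the reads to hg38 with STAR 2.5.3a, and quantified transcripts of GENCODE release 24 with Salmon 0.8.2. The authors deposited estimated counts for each gene symbol, which they made with tximport by scaling TPM for transcript length and library size (lengthScaledTPM). Reads that fit several genes were shared out by Salmon's model, so copies and overlapping genes are uncertain.

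The estimated counts were rounded and tested with edgeR 4.0.16 (R 4.3.3; quasi-likelihood test, TMM factors, and a filter of 10 or more counts in 3 or more samples) over 14225 genes, and called at a Benjamini-Hochberg adjusted p under 0.05. The SE is the absolute log2 fold change divided by the root of the F statistic. DESeq2 1.42.0 and limma 3.58.1 (voom) were alternatives. The study used DESeq2 1.22.2 with no design formula stated, and edgeR was preferred because, on data simulated with and without an effect of the replicate number, DESeq2 made a larger share of false calls than edgeR with the same design. The simulated counts were drawn with edgeR's own dispersions, so they cannot show which tool makes fewer false calls on these data. Deviations from the group means correlated across genes between same-numbered samples (r = 0.335 to 0.484, 3 pairs), so the numbers, taken from the labels, were treated as pairs. Between different numbers r was -0.379 to 0.0608 (6 pairs). The deviations of a group cancel out for each gene, so this range is not separate evidence of pairing. The p-values set the difference between the groups against the spread between these samples, and with the block against the spread left after the number's effect.

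Gene positions are from GENCODE release 44 and promoters from RefSeq (both GRCh38), with motifs searched on both strands. KNL1, SGO1 and SGO2 were matched to the older symbols in the table. Shared runs of 31 bases were searched on the same strand. Like the exon overlaps, they come from release 44 and not from release 24, which the counts used. Per-sample values are given, in each role group, for the gene with the smallest p and the gene nearest 0, and for the 3 smallest p with the block. From the other lists the 2 called genes with the smallest p per list are given. The members, lists and tests were chosen with earlier results of these data known. Alternatives were other scalings, filters and thresholds, the block, and leaving out each sample or number.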

Additional observations from a re-analysis of the deposited data

How the results depend on the processing

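SMARCA4 kept its direction and its call in all 23 settings run, the members called higher stayed at 0, the median of the members stayed below 0, and no setting without a block called a member. With the replicate block the members called lower were 7 by edgeR (TMM, median-ratio or upper-quartile scaling), 2 with library size alone, 8 by limma-voom and 14 by DESeq2, and 1, 0 and 23 without replicate number 1, 2 and 3. Genes called lower, 140 of all tested, became 291 by DESeq2, 82 with library size alone and 31 at an adjusted p under 0.01, and with the block 783 by edgeR, 817 with median-ratio and 967 with upper-quartile factors, 440 with library size alone, 967 by limma-voom and 1022 by DESeq2. They were 22 to 188 when 1 BRG1 sample was left out, 43 to 51 when 1 Control sample was, and 269, 21 and 923 with the block without number 1, 2 and 3. Genes called higher, 1313, became 1895 by edgeR, 2049 with library size alone, 2026 by limma-voom and 2086 by DESeq2, each with the block, 634 to 1209 without 1 BRG1 sample, 981 to 1043 without 1 Control sample and 668 with the block without number 2. Leaving out samples leaves fewer to test; otherwise the cause was not tested.

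Some members near 0 changed sign on the log2 scale. SMC4 was 0.0077 and ANLN 0.028 with at least 50 counts, 0.039 and 0.042 with library size alone, and ANLN was 0.024 with library size and the replicate block. ESPL1 was -0.12 and ANLN 0.016 with limma-voom, ESPL1 was -0.0017 with the edgeR block, and ESPL1 and KIF18A were -0.021 and -0.020 with upper-quartile factors and the block. Without 1 BRG1 sample and without 1 Control sample the ranges were ESPL1 -0.15 to 0.42 and -0.11 to 0.23, KIF18A -0.32 to 0.22 and -0.13 to 0.31, SMC4 -0.32 to 0.25 and -0.23 to 0.14, ANLN -0.15 to 0.25 and -0.19 to 0.11, CENPF -0.71 to 0.078 and -0.53 to -0.014, SPC24 -0.60 to 0.017 and -0.46 to -0.083. With the block, SMC4 was 0.019 without number 1 and 0.030 without number 2, ESPL1 -0.016 without number 2 and -0.14 without number 3, KIF18A -0.054 without number 2 and ANLN 0.077 without number 3. Of the 460 values for the 20 members given by rule, 384 kept their direction and side of the threshold, 45 became called and 31 changed sign. Every member had 178 or more counts in every sample.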
